A study of Homo sapiens with 6 samples.

Results

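The TRAIL death receptor pathway was followed in RBE cells, an established human cholangiocarcinoma (bile duct cancer) line. It was read through 10 genes chosen by name, with earlier results of these data known. They were the ligand gene TNFSF10 and the receptor genes TNFRSF10A, TNFRSF10B, TNFRSF10D, FAS and TNFRSF12A. The others were the initiator caspase gene CASP8 and the inhibitor genes CFLAR, BIRC2 and XIAP. All 10 were among the 16200 genes of the deposited table, and all 10 passed the filter on low counts that left 12565 genes for testing. Poly(A)-enriched RNA was sequenced in 6 libraries of the same line, 3 from cells labelled sgKCNQ3, a name read here as a guide RNA against the potassium channel gene KCNQ3, and 3 from cells labelled NC. The labels do not say what NC stands for, whether the Cas protein cut or silenced the gene, or whether the cells were 1 clone or a pool. Libraries held 15601283 to 16089500 counts, and KCNQ3 itself, at 222, 206 and 191 counts in the sgKCNQ3 libraries and 256, 257 and 252 counts in the NC libraries, fell by 20.4% (edgeR adjusted p 0.00446). The labels do not say that libraries came from separate cultures, so p-values measure only how these samples spread, possibly for technical reasons.

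TRAIL, the protein made from TNFSF10, is a membrane-bound cytokine that kills by clustering death receptors on the target cell. The clustered receptors recruit the adaptor FADD and procaspase-8, which activates itself in the complex and then cleaves the executioner caspases. Decoy receptors bind TRAIL without passing on the death signal, c-FLIP (CFLAR) occupies the place of procaspase-8 in the complex, and the inhibitor of apoptosis proteins act further down, XIAP on caspases themselves and cIAP1 (BIRC2) as a ubiquitin ligase at the receptors. Biliary cells and their tumours carry these receptors, and TRAIL is one of the signals by which bile duct epithelium is killed in cholestatic liver disease.

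The ligand gene rose, the decoy receptor gene rose, and the receptor genes TNFRSF10B, FAS and TNFRSF12A fell, while the inhibitors split. In edgeR's quasi-likelihood test 7 of the 10 genes were called at an adjusted p under 0.05, against 29.1% of all tested genes. Since the genes were chosen with earlier results known, such counts cannot show that the pathway changed more than others. TNFSF10, TNFRSF10D and XIAP were the 3 called higher, where 14.0% of tested genes were. TNFRSF10B, FAS, TNFRSF12A and BIRC2 were the 4 called lower, where 15.1% of tested genes were. The 3 genes past no threshold were TNFRSF10A, CASP8 and CFLAR. The median log2 fold change of the 10 genes was -0.09, beside -0.007 over all tested genes. In library-scaled counts (CPM, counts scaled to library size with TMM factors) the 2 groups did not overlap for 9 of the 10 genes, where this held for 41.7% of tested genes. Apart from TNFSF10 the changes were small, between -0.39 and 0.25 on the log2 scale. An exact permutation test of 3 against 3 libraries cannot go below 0.1 for a single gene, so the calls rest on the model fitted across genes.

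**Figure D1:**
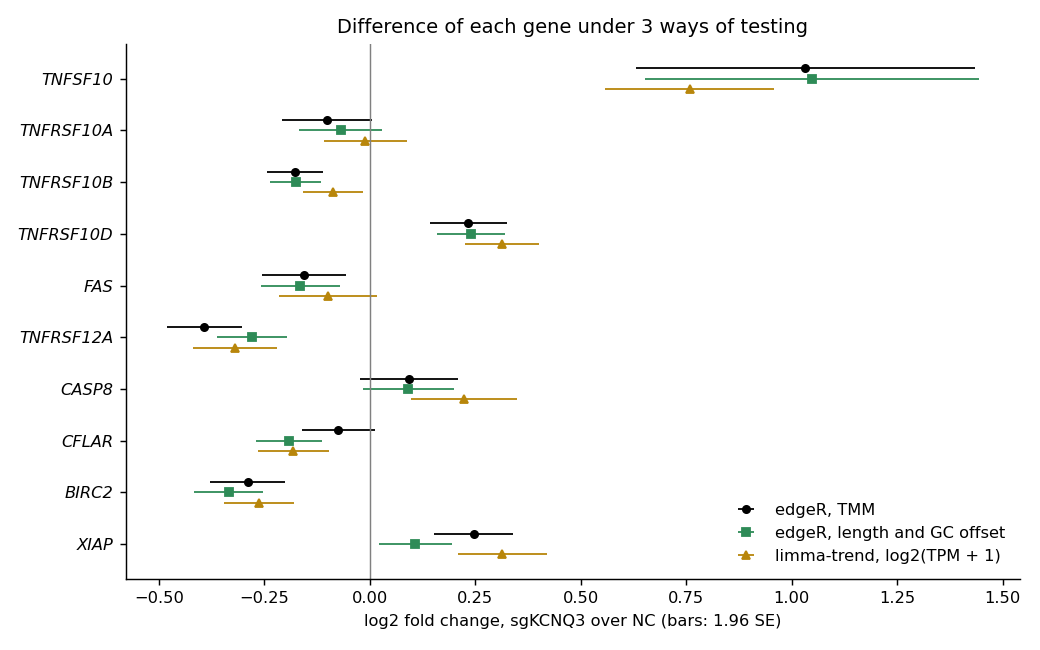
Log2 fold change of each gene, sgKCNQ3 over NC, by edgeR on counts (circles), edgeR with length and GC trends removed per library (squares) and limma on log2(TPM + 1) (triangles), with bars for the 95% interval from 3 libraries per group. TNFSF10 lies far to the right at 1.03 by edgeR, and XIAP and CFLAR are the genes whose call changes with the length and GC offset.

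The 4 called genes that have an entry in the RefSeq promoter table (GRCh38.p14) are shown by the 250 bases before their first listed transcription start, since these are genes whose RNA changed. The 4 genes TNFRSF10A, TNFRSF10B, TNFRSF10D and TNFRSF12A have no entry. Capitals mark matches, on either strand, to 8 motifs, and no matches of different motifs overlapped in these windows. An AP-1 site was searched as TGANTCA, with N for any base, a cyclic AMP response element as TGACGTCA, and a GC box as GGGCGG. The letters for a FOXO site were GTAAACA and those for a TATA box TATAAA. A STAT site was searched as TTCNNNGAA. The interferon response element core was the repeat GAAA with its copies 2 bases apart. The NF-kB site was GGGA followed after any 4 bases by a pair of C.
TNFSF10 promoter, chr3:172523431-172523680, minus strand: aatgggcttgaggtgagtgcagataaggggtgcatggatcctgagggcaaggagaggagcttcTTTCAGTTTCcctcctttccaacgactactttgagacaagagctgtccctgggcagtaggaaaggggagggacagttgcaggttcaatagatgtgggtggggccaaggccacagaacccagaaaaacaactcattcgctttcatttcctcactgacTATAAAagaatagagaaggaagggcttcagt
FAS promoter, chr10:88990548-88990797, plus strand: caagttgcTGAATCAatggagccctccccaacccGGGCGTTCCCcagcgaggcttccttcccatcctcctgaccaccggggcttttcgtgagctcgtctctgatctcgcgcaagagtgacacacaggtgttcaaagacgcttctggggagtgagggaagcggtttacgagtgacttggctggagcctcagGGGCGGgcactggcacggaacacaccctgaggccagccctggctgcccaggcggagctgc
BIRC2 promoter, chr11:102346964-102347213, plus strand: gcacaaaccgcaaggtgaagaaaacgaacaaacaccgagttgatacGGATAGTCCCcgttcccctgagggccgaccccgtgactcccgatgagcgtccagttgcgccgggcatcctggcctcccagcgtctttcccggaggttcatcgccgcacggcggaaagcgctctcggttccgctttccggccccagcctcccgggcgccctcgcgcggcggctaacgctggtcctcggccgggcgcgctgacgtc
XIAP promoter, chrX:123859458-123859707, plus strand: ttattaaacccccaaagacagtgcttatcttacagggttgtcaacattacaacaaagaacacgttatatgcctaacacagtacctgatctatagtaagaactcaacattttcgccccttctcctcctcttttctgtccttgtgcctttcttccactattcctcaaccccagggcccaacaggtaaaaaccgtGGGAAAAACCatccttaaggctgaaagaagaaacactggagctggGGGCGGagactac
The TNFSF10 window held the interferon response element core, read on the opposite strand, which 3.02% of 35116 promoter windows of this length hold, and a TATA box 31 bases before the start, which 10.7% hold. The FAS window held an AP-1 match (6.57% of windows), a GC box (42.6%) and an NF-kB match (22.6%). The BIRC2 window held an NF-kB match alone, and the XIAP window an NF-kB match and a GC box. No window of the 4 held the cyclic AMP response element (1.65% of windows), the FOXO letters (2.98%) or the STAT letters (6.57%). The BIRC2 window ends in TGACGTC, the first letters of the cyclic AMP response element, and bases past its end were not searched. FAS and XIAP have 3 entries each, BIRC2 has 2 and TNFSF10 has 1, and only the window of the first entry is described here. A match says that these letters are present, not that a factor binds there.

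TNFSF10, the gene for TRAIL, was the weakest expressed of the 10 and changed most. Its sgKCNQ3 libraries held 53, 54 and 41 counts, against 21, 22 and 28 counts in the NC libraries. Every sgKCNQ3 library lay above every NC library, and sgKCNQ3 replicate 3 was the lowest of its group. In CPM the gene averaged 3.11 ± 0.470 in sgKCNQ3 and 1.51 ± 0.240 in NC (SD, n = 3 each), a log2 fold change of 1.03 (SE 0.205, adjusted p 5.02e-04). With so few counts the 95% interval of the fold change was wide, 0.63 to 1.43 on the log2 scale. TRAIL is made in quantity by leukocytes. In bulk RNA fewer cells of a type and less RNA per cell cannot be told apart. The 8 leukocyte markers summed to 74.5 to 80.05 CPM in sgKCNQ3 and 90.9 to 98.2 CPM in NC, nearly all of it CD68, at 1130 to 1486 counts per library. PTPRC, CD3E and CD14 held 0 to 2 counts per library, while ITGAM held 21 to 37, LYZ 11 to 17 and CSF1R 2 to 16. The part of such cells in the TNFSF10 counts was not tested. The 3 tested genes with the pattern most like TNFSF10 over the 6 libraries, by the root mean square difference of centred log2 CPM, were ZNF532 (0.0569), OLIG1 (0.116) and ZNF66 (0.139), out of 12229 genes with a median of 0.528. Of these, ZNF532 and OLIG1 were as weakly expressed as TNFSF10, with means of 1.36 and 2.50 CPM in sgKCNQ3 and 0.661 and 1.15 CPM in NC.

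**Figure D2:**
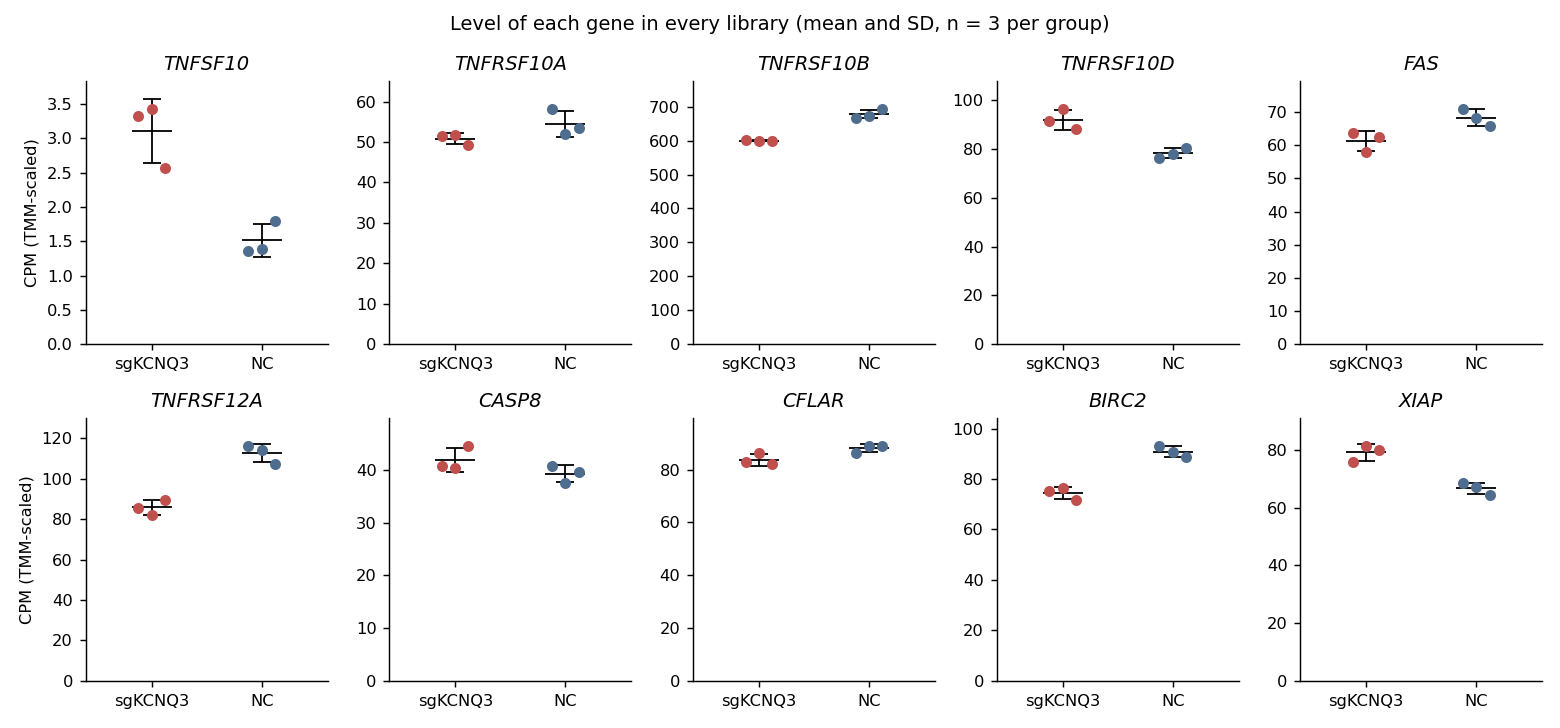
Library-scaled counts (CPM, linear axis from 0) of each gene in the 3 sgKCNQ3 libraries (red, left) and the 3 NC libraries (blue, right), with the mean and SD of each group. TNFSF10 lies near 3 CPM or below in every library while TNFRSF10B lies near 600 or above, and CASP8 is the gene whose groups overlap.

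The TRAIL receptor genes lie together on chromosome 8 and did not move together. In GRCh38 (GENCODE release 29) TNFRSF10B spans 23020133 to 23069179, TNFRSF10D 23135588 to 23164030 and TNFRSF10A 23190452 to 23225126, all on the minus strand. The gaps between them are 66.4 and 26.4 kb. The decoy receptor gene TNFRSF10C, on the plus strand, lies in the wider gap, from 23102590 to 23117437. KCNQ3 lies on the other arm of the same chromosome, from 132120858 to 132481019.

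TNFRSF10B encodes DR5, a TRAIL receptor with a full death domain, and was the highest of the 10 genes per transcript length. It stood at 601, 598 and 599 CPM in the sgKCNQ3 libraries, against 668, 674 and 692 CPM in the NC libraries. The groups were far apart for their spread, with SDs of 1.24 CPM in sgKCNQ3 and 12.9 CPM in NC. TNFRSF10B fell by 11.6%, a log2 fold change of -0.18 (SE 0.0343, adjusted p 3.78e-04). Per length, in the deposited TPM, the difference was -0.09 on the log2(TPM + 1) scale and not called (limma adjusted p 0.112). On that scale the median of all tested genes stood at 0.065, and 25.3% of tested genes were called.

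TNFRSF10A encodes DR4, the other TRAIL receptor with a death domain. It had 51.5, 51.7 and 49.3 CPM in sgKCNQ3, against 58.1, 51.9 and 53.6 CPM in NC. The groups came close without overlapping, with NC replicate 1 standing highest, and the difference was not past the threshold (log2 fold change -0.10, 95% interval -0.21 to 0.006, adjusted p 0.172). None of the 19 alternatives called it.

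TNFRSF10D encodes a decoy receptor whose death domain is truncated, and it rose. It had 91.6, 96.4 and 88.2 CPM in sgKCNQ3, against 76.4, 78.1 and 80.5 CPM in NC. The rise was 0.23 on the log2 scale (SE 0.0465, adjusted p 5.12e-04) and was called in all 19 alternatives. The ratio of its TPM to the summed TPM of TNFRSF10A and TNFRSF10B, which does not depend on scaling between libraries, was 0.152, 0.160 and 0.148 in the sgKCNQ3 libraries and 0.114, 0.117 and 0.118 in the NC libraries. Its mean in sgKCNQ3 was 1.32 times that in NC. The related decoy gene TNFRSF10C, whose product is anchored to the membrane by a lipid, held 6 to 12 counts per library and was not tested.

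FAS encodes the receptor for Fas ligand, which uses the same adaptor and caspase as the TRAIL receptors. It had 63.6, 57.9 and 62.5 CPM in sgKCNQ3, against 70.9, 68.3 and 65.8 CPM in NC. It fell by 0.16 on the log2 scale (SE 0.0509, adjusted p 0.0227). This call was the weakest of the 7. It was lost in 7 of 19 alternatives, among them the test without sgKCNQ3 replicate 2, the lowest library (-0.11, adjusted p 0.114), and those without NC replicate 1 (-0.13, adjusted p 0.105) or NC replicate 2 (-0.16, adjusted p 0.0540). Fas ligand itself (FASLG) held 0 to 4 counts per library. FAS overlaps ACTA2, the smooth muscle actin gene, on the opposite strand, and the labels do not say how counting treated strand. ACTA2 fell as well, with 54.3 ± 0.972 CPM in sgKCNQ3 and 62.9 ± 3.28 CPM in NC (SD, n = 3 each; log2 fold change -0.21, adjusted p 0.00308), and the part of its reads in the FAS counts was not tested.

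TNFRSF12A encodes Fn14, the receptor for TWEAK, which has no death domain and signals through TRAF adaptors and cIAP1. It had 85.7, 82.1 and 89.6 CPM in sgKCNQ3, against 116, 114 and 107.5 CPM in NC. The highest sgKCNQ3 library stood well below the lowest NC library. TNFRSF12A fell by 23.8%, with a log2 fold change of -0.39 (SE 0.0459, adjusted p 6.07e-07). Once length and GC trends were removed per library, where 26.1% of tested genes were called, its change was -0.28 (edgeR adjusted p 2.80e-05). Its transcript is short, at an implied length of 685 bases. The ligand gene TNFSF12 averaged 4.72 CPM in sgKCNQ3 and 5.31 CPM in NC and did not pass the threshold (log2 fold change -0.17, adjusted p 0.356). Of the genes overlapping TNFRSF12A, CLDN6 held 0 to 2 counts, and RHOBTB2, which overlaps TNFRSF10B, was not called (log2 fold change 0.14, adjusted p 0.103).

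CASP8, the initiator caspase of the receptor complex, and CFLAR, whose product is a relative of caspase-8 without protease activity, lie 56.8 kb apart on chromosome 2 with CASP10 between them. In counts neither was called. CASP8 had 40.8, 40.4 and 44.6 CPM in sgKCNQ3, against 40.7, 37.6 and 39.6 CPM in NC. The groups overlapped (log2 fold change 0.09, 95% interval -0.02 to 0.21, adjusted p 0.25). CFLAR had 82.7, 86.2 and 82.0 CPM in sgKCNQ3, against 86.3, 88.9 and 88.9 CPM in NC. The groups came within 0.1 CPM of each other, and the log2 fold change was -0.07 (95% interval -0.16 to 0.01, adjusted p 0.217).

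Per transcript length the picture for these genes was different. CFLAR had 50.5, 47.0 and 47.0 TPM in sgKCNQ3, against 54.0, 54.5 and 55.5 TPM in NC. CASP8 had 32.6, 30.2 and 35.2 TPM in sgKCNQ3, against 27.8, 26.3 and 29.3 TPM in NC. On log2(TPM + 1) CFLAR was called lower (-0.18, limma adjusted p 0.0167) and CASP8 higher (0.22, limma adjusted p 0.0313). On that scale 25.3% of all tested genes were called, and 81% of the called genes were higher. The median of all tested genes stood at 0.065 there, so a rise such as that of CASP8 is in part shared by most genes. The ratio of CFLAR to CASP8 was 1.55, 1.56 and 1.335 in TPM in the sgKCNQ3 libraries, and 1.94, 2.07 and 1.89 in the NC libraries. In TPM the mean ratio in sgKCNQ3 was 0.751 times that in NC, with no overlap. In counts it was 0.892 times, and the groups overlapped. In TPM the groups did not overlap for 8 of the 10 genes, where this held for 42.5% of tested genes.

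**Figure D3:**
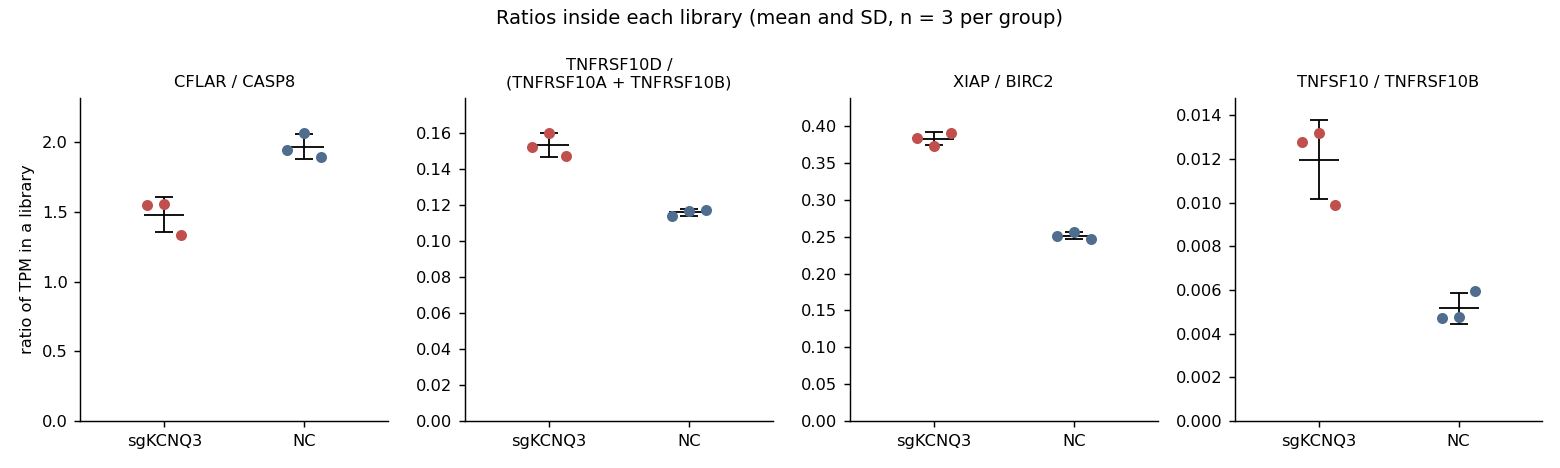
Ratios of TPM inside each library (linear axes from 0) in sgKCNQ3 (red, left) and NC (blue, right), with the mean and SD of 3 libraries per group. The CFLAR to CASP8 ratio is lower in every sgKCNQ3 library, at 1.335 to 1.56 against 1.89 to 2.07, and the other ratios are higher in every sgKCNQ3 library.

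The counts of CFLAR and its TPM differ by a transcript length, which the authors' values imply. A count divided by its FPKM and by the library total gives the length that was used for a gene in that library, an average over its transcripts weighted by their estimated abundance. For CFLAR this implied length was 2622, 2862 and 2815 bases in the sgKCNQ3 libraries, against 2376, 2437 and 2416 bases in the NC libraries, after a shift common to all genes of a library (-15.4 to 8.03 bases) was removed. The shortest sgKCNQ3 value exceeded the longest NC value by more than the whole NC range. The mean was 14.8% longer in sgKCNQ3. The difference ranked 18th in size among 8636 genes with at least 200 counts and an FPKM of at least 1 in every library. Groups apart by at least 5% without overlap were found for 2.51% of those genes, and CFLAR alone met this among the 9 genes with enough counts (TNFSF10 had too few). An exact permutation test of this value cannot go below 0.1.

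CFLAR has 25 annotated transcripts in GENCODE release 29, of which 18 are coding, at 435 to 14672 bases. They include the messages of the long and short forms of c-FLIP. Which transcripts lie behind the longer average cannot be read from gene-level values. The deposited counts of CFLAR and XIAP were not whole numbers in every library, so that some reads were divided between features. For FAS the implied length was 2416, 2495 and 2499 bases in sgKCNQ3, against 2401, 2428 and 2416 bases in NC. For CASP8 it was 1999, 2085 and 2039 bases in sgKCNQ3, against 2181, 2132 and 2042 bases in NC. Both sets overlapped. TNFRSF10A, TNFRSF10B, TNFRSF10D, TNFRSF12A and XIAP had group means within 0.1% of each other.

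**Figure D4:**
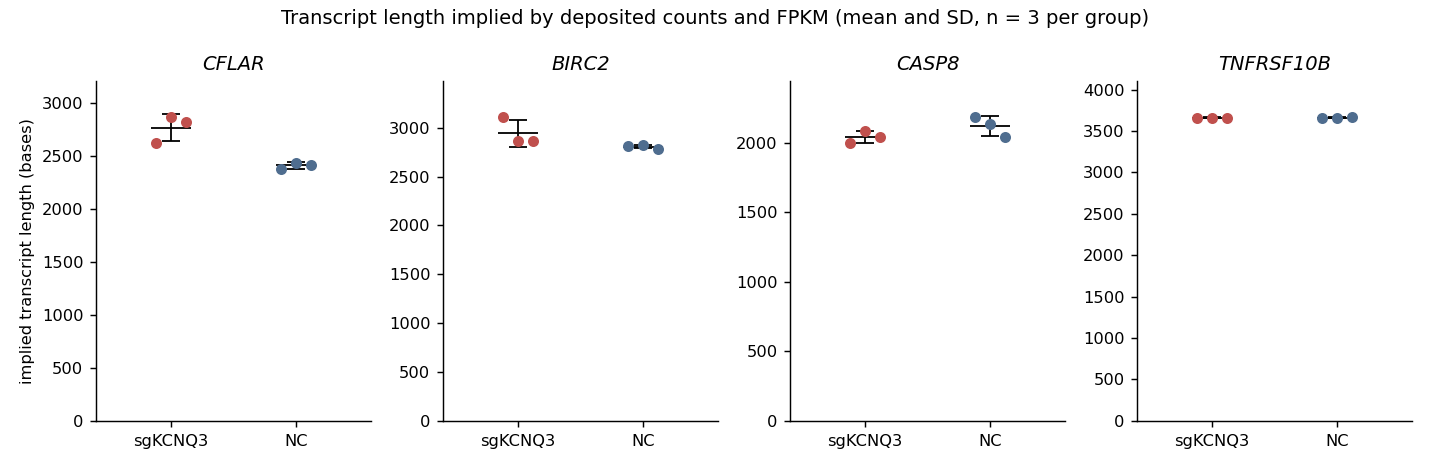
Transcript length implied by the deposited counts and FPKM (bases, linear axes from 0) for CFLAR, BIRC2, CASP8 and TNFRSF10B in sgKCNQ3 (red, left) and NC (blue, right), with the mean and SD of 3 libraries per group. CFLAR lies at 2622 to 2862 bases in sgKCNQ3 and at 2376 to 2437 bases in NC, while TNFRSF10B stays within 3657 to 3663 bases in all 6 libraries.

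The inhibitors of apoptosis moved in opposite directions. BIRC2 encodes cIAP1, which attaches ubiquitin to RIPK1 and to the kinase NIK. It had 75.2, 76.3 and 71.6 CPM in sgKCNQ3, against 93.1, 90.7 and 88.9 CPM in NC. BIRC2 fell by 18.2%, a log2 fold change of -0.29 (SE 0.0455, adjusted p 3.53e-05), and was called in all 19 alternatives. With length and GC trends removed per library its change was -0.33, larger in size than that of TNFRSF12A there. Its implied length was 3105, 2864 and 2866 bases in sgKCNQ3, with replicate 1 standing apart, against 2809, 2826 and 2787 bases in NC. The groups did not overlap, and the mean was 4.9% longer in sgKCNQ3, just short of the 5% bound used above.

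XIAP binds and blocks caspases directly. It had 75.9, 81.3 and 80.0 CPM in sgKCNQ3, against 68.3, 67.1 and 64.4 CPM in NC. It rose by 0.25 on the log2 scale (SE 0.0476, adjusted p 3.64e-04). XIAP has the longest implied transcript of the 10 at 8170 bases. Once length and GC trends were removed per library its change was 0.11 and no longer called (edgeR adjusted p 0.0742). The ratio of XIAP to BIRC2 in TPM was 0.384, 0.374 and 0.392 in sgKCNQ3, and 0.252, 0.256 and 0.247 in NC, so its mean was 1.52 times as high in sgKCNQ3.

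In TPM, which sets genes side by side per length, the order of the 10 genes was TNFRSF10B (260.7 ± 4.84), TNFRSF12A (198 ± 11.98), CFLAR (48.1 ± 2.00), TNFRSF10D (45.2 ± 1.24), BIRC2 (40.2 ± 1.37), FAS (39.5 ± 3.05), TNFRSF10A (33.7 ± 0.586), CASP8 (32.7 ± 2.53), XIAP (15.4 ± 0.458) and TNFSF10 (3.11 ± 0.436) in sgKCNQ3 (mean ± SD, n = 3). In that group BIRC2 and FAS overlapped, and so did TNFRSF10A and CASP8. In NC the order was TNFRSF10B (277 ± 7.02), TNFRSF12A (247.5 ± 9.73), CFLAR (54.7 ± 0.720), BIRC2 (48.4 ± 0.746), FAS (42.3 ± 1.46), TNFRSF10D (36.1 ± 1.21), TNFRSF10A (34.0 ± 1.89), CASP8 (27.8 ± 1.46), XIAP (12.2 ± 0.283) and TNFSF10 (1.43 ± 0.234), and there TNFRSF10D and TNFRSF10A overlapped. TNFRSF10D stood 4th of the 10 in sgKCNQ3 and 6th in NC. TRAIL message was scarce beside that of its receptor, at 0.0128, 0.0132 and 0.00988 of the TNFRSF10B level in sgKCNQ3 and 0.00472, 0.00476 and 0.00597 of it in NC.

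Around these genes the rest of the pathway was read from lists taken from general knowledge, but written with earlier results of these data known. Counts and values are given, with no test of a list. Of 17 other ligands of the TNF family 6 were tested. TNFSF15 was the 1 called, or 16.7% called beside 29.1% of all tested genes. It was lower, at 31.9 ± 1.29 CPM in sgKCNQ3 and 46.95 ± 0.261 CPM in NC (SD, n = 3 each), a log2 fold change of -0.56 (edgeR adjusted p 6.87e-08). With length and GC trends removed TNFSF13 was called as well, higher (0.29, edgeR adjusted p 0.0285), where 26.1% of all tested genes were called. Without that step TNFSF13 was not called (0.22, edgeR adjusted p 0.111). Of 24 other TNF receptor genes 14 were tested, with 1 called higher and 4 lower, or 35.7% called beside 29.1% of all tested genes. TNFRSF21, the death receptor DR6, rose, with a log2 fold change of 0.26 (adjusted p 2.61e-05). TNFRSF1A, the main TNF receptor, fell by 0.16 on the log2 scale, RELT by 0.32 and EDA2R by 0.25. With length and GC trends removed TNFRSF1A was not called (-0.09, adjusted p 0.0776).

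Of 20 tested adaptors and regulators of the receptor complex, 1 was called higher and 5 lower, with a median of -0.03. That is 30% called, near the 29.1% of all tested genes. FADD, the adaptor that links TRAIL receptors and FAS to caspase-8, averaged 82.9 CPM in sgKCNQ3 and 93.1 CPM in NC (log2 fold change -0.17, adjusted p 0.00653). With length and GC trends removed FADD was not called (-0.08, adjusted p 0.156). TRAF1 fell by 0.61 and TNFAIP3, the ubiquitin editor of TNF receptor signalling, by 0.38 on the log2 scale. CUL3, a ligase scaffold that acts on caspase-8, was the 1 called higher (0.13, adjusted p 0.0428; 0.001 and adjusted p 0.986 with length and GC trends removed). CASP10, between CFLAR and CASP8, was not called (0.06, adjusted p 0.769).

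Of 15 effector caspases and genes of the mitochondrial arm, 2 were called higher and 3 lower, or 33.3% called beside 29.1% of all tested genes. APAF1, the scaffold of the apoptosome, rose by 0.30 and PARP1 by 0.11 on the log2 scale. BAX (-0.16), BAK1 (-0.19) and DIABLO (-0.15), which encode the pore formers of the outer mitochondrial membrane and an antagonist of the inhibitors of apoptosis, fell. With length and GC trends removed none of BAX, BAK1, DIABLO and APAF1 was called (edgeR adjusted p 0.259, 0.0840, 0.183 and 0.0575), while CASP6 (0.24, adjusted p 0.0367) and HTRA2 (0.22, adjusted p 0.0113) were called higher, which made 3 higher and 0 lower of the 15, where 26.1% of all tested genes were called.

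Of 5 tested genes among the other inhibitors of apoptosis and their antagonists, 2 were called higher and 2 lower, where 14.0% of all tested genes were called higher and 15.1% lower. BIRC3 encodes cIAP2 and lies 7.8 kb from BIRC2. It averaged 27.2 CPM in sgKCNQ3 and 34.0 CPM in NC (log2 fold change -0.32, adjusted p 3.94e-04), so that both cIAP genes fell. BIRC5, survivin, fell by 0.18, and BIRC6 rose by 0.19 on the log2 scale, the rise of BIRC6 not being called with length and GC trends removed (0.08, adjusted p 0.196). NAIP rose by 1.09 (adjusted p 0.0168) at 1.55 CPM in sgKCNQ3 and 0.722 CPM in NC, on 3 to 28 counts per library.

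**Figure D5:**
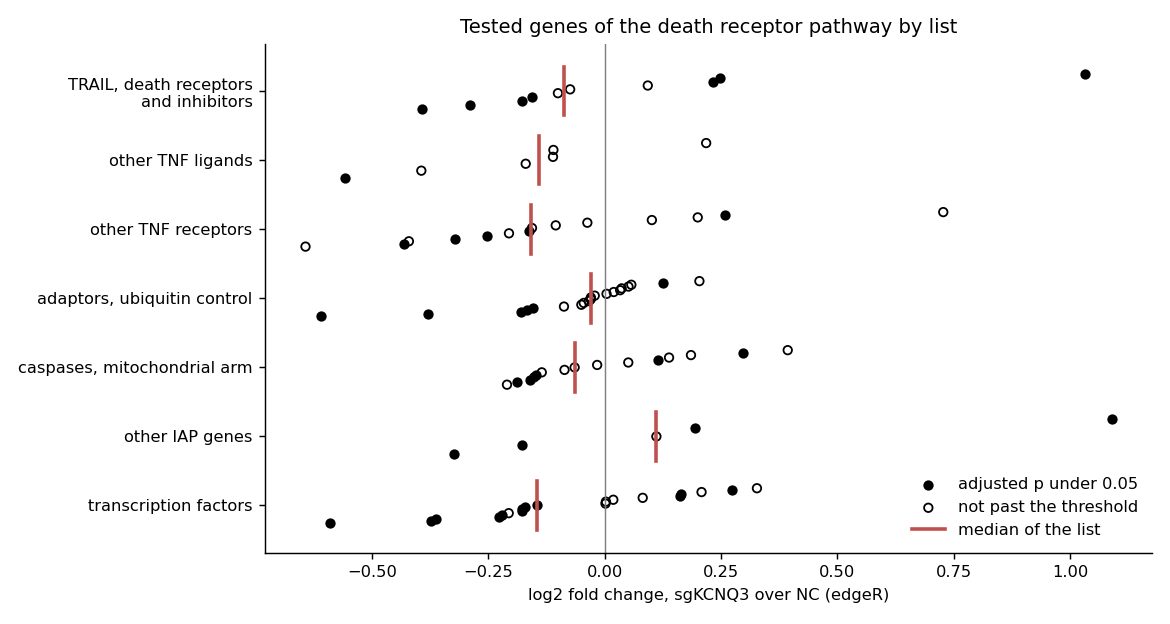
Log2 fold changes (edgeR, sgKCNQ3 over NC) of the tested genes of each list, filled where the adjusted p was under 0.05 and open where it was not, with the median of the list as a red bar. The 10 genes of the top row have a median of -0.09, and most genes of every list lie within 0.5 of 0.

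Markers of biliary epithelium ranged widely in level. KRT7 was the highest, at 1440 CPM in sgKCNQ3 and 1404 CPM in NC. CDH1 was the lowest, at 4.15 CPM in sgKCNQ3 and 2.30 CPM in NC, on 32 to 71 counts per library. All 7 were tested and 4 (KRT8, KRT18, SOX9 and CDH1) were called, each higher, where 14.0% of all tested genes were. Of 8 leukocyte markers 4 were tested, and CD68 (-0.27) and CSF1R (-1.21) were called lower, where 15.1% of all tested genes were. CSF1R stood at 0.336 CPM in sgKCNQ3 and 0.787 CPM in NC, on 2 to 16 counts per library. Of 4 endothelial markers none reached the filter, and of 5 fibroblast markers 2 were tested and none called. Their part in the results above was not tested.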

How the data were processed

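Gene-level values of 6 poly(A)-enriched libraries were used, grouped by their titles. The build was GRCh38.p13, as the submitters' processing notes list it. Aligner, counter and strand handling were not given in the sources used here. Per the file headers, the authors deposited estimated counts (expected counts) without normalization, of which 5.52% to 6.33% per library were not whole. The deposited TPM and FPKM values are per transcript length, per the file headers. The deposited normalized signal (counts divided by 1 factor per library), and the authors' group means, including a whole-number score, entered no test.

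The rounded counts were fitted in R 4.3.3 with edgeR 4.0.16: filterByExpr (minimum count 10; 3635 genes removed), TMM factors, robust quasi-likelihood F tests, and Benjamini-Hochberg adjustment over 12565 genes at 0.05. SE is the log2 fold change over the root of F. The procedure was tested on simulated data with 1 common spread for all genes. At a true log2 change of 0.25 in size, 28 of 49 changed genes were recovered. At 0.5 it was 43 of 49, and at 1 it was 49 of 50. Changes of 0.5 or less can thus be missed, and those of 0.25 or less more often. Alternatives were other scalings and filters, DESeq2 1.42.0, limma 3.58.1 (voom, and trend on log2(TPM + 1) or log2(TPM + 0.1)), the replicate number as a block, each library left out, and an offset that removes each library's trend over length and GC content (natural splines, 5 degrees of freedom; longest protein-coding transcript of GENCODE release 29, found for 16062 genes). Intervals are at 95%, from the SE by the normal approximation. No 2 libraries agreed within sampling noise (chi-square per degree of freedom 1.63 to 4.17 within groups and 6.88 to 11.3 between groups).

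The 10 genes and all lists were chosen with earlier results of these data known. Genes of a list are named if in the design or among the 3 called genes with the smallest p in a direction. FASLG, TNFSF13, TNFRSF21, CASP10, CASP6, HTRA2, FOXO4, EGR1 and the markers named were picked after their values were seen. Some genes of the lists are not reported here by name. Figures were drawn with matplotlib 3.10.9.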

Additional observations from a re-analysis of the deposited data

How the results depend on the processing

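All 10 genes kept the direction of their log2 fold change in all 19 alternatives, and 6 or 7 of them were called in each. Of all genes tested, the share called ran from 14.35% with DESeq2 to 31.08% with a floor of 2 CPM in 3 libraries. TNFSF10, TNFRSF10D, TNFRSF12A and BIRC2 were called in all 19, TNFRSF10B in 17 and XIAP in 16. TNFRSF10B missed the threshold in both tests on TPM (adjusted p 0.112 and 0.115). FAS was called in 12, and missed with library size alone (adjusted p 0.0841), with DESeq2 (0.0894), on TPM (0.245 and 0.243), and without sgKCNQ3 replicate 2, NC replicate 1 (0.105) or NC replicate 2 (0.0540). CFLAR was called lower with the length and GC offset (-0.19, edgeR adjusted p 8.60e-04), which takes its longest transcript of 14672 bases as its length. With the length implied by the deposited values (2588 bases), an alternative chosen after seeing the data, CFLAR was not called (-0.07, adjusted p 0.193), and neither was XIAP (0.10, adjusted p 0.114). Over all genes DESeq2 called 2322 and edgeR 3658, and the cause was not tested. Of called genes, 48.2% were higher with TMM, 64.5% with library size alone and 81% on log2(TPM + 1). The ratio of CFLAR to CASP8 moved to 0.892 in counts, and that of XIAP to BIRC2 to 1.45. Same-numbered libraries did not deviate together (correlations 0.0136, -0.0977 and 0.00776). With the replicate block 3136 genes, 24.96% of those tested, and the same 7 genes of the 10 were called.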

Other observations

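Transcription factors known to act on TNFSF10, FAS or the TRAIL receptor genes were themselves changed in part. Of 19 tested, 3 were called higher and 9 lower, where 14.0% of all tested genes were called higher and 15.1% lower, with a median log2 fold change of -0.15 beside -0.007 over all tested genes. DDIT3 encodes CHOP, a stress factor known to drive TNFRSF10B. It averaged 96.0 CPM in sgKCNQ3 and 124 CPM in NC (log2 fold change -0.37, edgeR adjusted p 5.37e-07). The NF-kB subunit genes RELB (-0.59) and NFKB2 (-0.36) fell, RELB to 22.04 CPM in sgKCNQ3, against 33.2 CPM in NC. FOXO1 (0.27, adjusted p 0.0154), FOXO3 (0.16, adjusted p 0.0121) and YY1 (0.16, adjusted p 0.00271) were those called higher. The FOXO factors are known to act on the TNFSF10 promoter. The exact letters GTAAACA were absent from its 250 bases shown above, but looser forms of the site were not searched. A part of FOXO factors in the TNFSF10 change was not tested. With length and GC trends removed FOXO1, FOXO3 and YY1 were not called (adjusted p 0.0505, 0.198 and 0.0682), while FOXO4 (0.37, adjusted p 0.0412) and EGR1 (0.12, adjusted p 0.0145) were called higher there. Without that step FOXO4 had a log2 fold change of 0.33 (adjusted p 0.0708) and EGR1 of 0.08 (adjusted p 0.130).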
